A study of Homo sapiens with 4 samples.

Results

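Levels of 44 messenger RNAs for DNA replication licensing and fork proteins were compared between Huh7 cells treated with an siRNA against NF90 (siNF90) and Huh7 cells treated with the control siRNA labelled siNTC. The genes were chosen by name, as the subunits and partners of the complexes that load and drive replication forks. All 44 were found by their present symbol in the probe table of the array, among 19140 genes that could be tested. Huh7 is an established line derived from a human liver tumour (hepatocellular carcinoma), and NF90 binds double-stranded RNA. Each of the 2 groups held 2 arrays of total RNA, and the labels name no other treatment, siRNA dose or time. The labels do not say whether replicates are separate cultures, and the spread behind each p-value is that of these arrays alone and may be technical. The NF90 gene itself was not analysed here, and its depletion is therefore unchecked.

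DNA replication starts in 2 separated steps. In G1 phase the origin recognition complex, CDC6 and CDT1 load the MCM2-7 helicase ring onto DNA, which is called licensing. In S phase CDC45 and GINS join the ring to form the active helicase, and polymerases alpha, delta and epsilon copy the DNA behind it with the clamp PCNA, its loader replication factor C and the single-strand binder replication protein A. Geminin blocks CDT1 once S phase has begun, and E2F transcription factors switch on many of these genes at the border of G1 and S phase. A change in the share of cells in S phase and a change in RNA per cell cannot be told apart in RNA from bulk cultures.

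The liver identity of the cells was checked first. Of 11 hepatocyte and Huh7 markers 9 were tested, and their mean values ran from 5.68 for APOA1 to 10.9 for ALB. Markers of blood, endothelial, stromal, basal epithelial and neural cells ran from 2.23 to 4.18 over the 10 of 12 that were tested, with a median of 3.32. The 4 arrays had medians of 3.93 to 4.01 over all genes tested, whose values also come from kept probe sets. Over all 352859 probe sets, dim ones included, the medians were 2.72 to 2.79. Pearson's r of gene values between arrays was 0.936 to 0.958, taken across genes, and genes are not independent replicates. The values are log2 RMA signals, which do not order different genes by their number of transcripts.

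None of the 44 replication genes passed the test. Limma with Benjamini-Hochberg adjustment over all genes called 0 of 44 at an adjusted p of 0.05, and it called 0% of all 19140 genes. With the trend and robust prior limma called 0 of the 44 and 0.251% of all genes. At an unadjusted p under 0.05 there were 2 replication genes, CDT1 and RFC5, which is 4.55% against 8.79% of all genes tested. Among the 3733 genes with mean values in the interquartile range of the replication genes the share was 7.07%. CDT1 and RFC5 were both higher in siNF90, where 3.51% of all genes met that rule, and 0 were lower, where 5.29% of all genes did. CDT1 met the rule with a probe set that was kept only through its siNF90 values. Without that probe set its unadjusted p was 0.063 in limma, so CDT1 is not read as support for a change. The 44 differences, siNF90 minus siNTC on the log2 scale, split evenly into 22 positive and 22 negative, with a median of -0.0088, against a median of -0.018 over all genes.

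The sizes were small as well. The differences ran from -0.49 for CDC6 to 0.57 for CDT1, and 3 of the 44 reached 0.5 in either direction (6.82%), against 17.1% of all genes tested. Among the 3733 genes whose mean value lay in the interquartile range of the replication genes, from 5.21 to 6.73, the share was 8.36%. The 3 genes were CDT1, PRIM2 and RFC5. With other choices of probe sets, added after the values were seen, CDT1 had 0.41 and PRIM2 -0.036. No replication gene differed by 1 or more, as 2.76% of all genes did. The 95% interval of the difference stayed between -1 and 1 for 39 genes, and it passed one of those limits for CDC6, CDT1, POLA1, PRIM2 and RFC2. In 26 of the 44 genes the gap between both siNTC arrays was larger than the difference between the groups. The share over all genes was not computed, and a gap between single arrays varies more than a difference of group means. The median absolute difference between the groups was 0.183 over the 44 genes and 0.22 over all genes tested. Over the 3733 genes in the same range of values it was 0.175, so the replication genes were like genes of their level. For the gap between the siNTC arrays the median absolute values were 0.21 and 0.24.

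**Figure D1:**
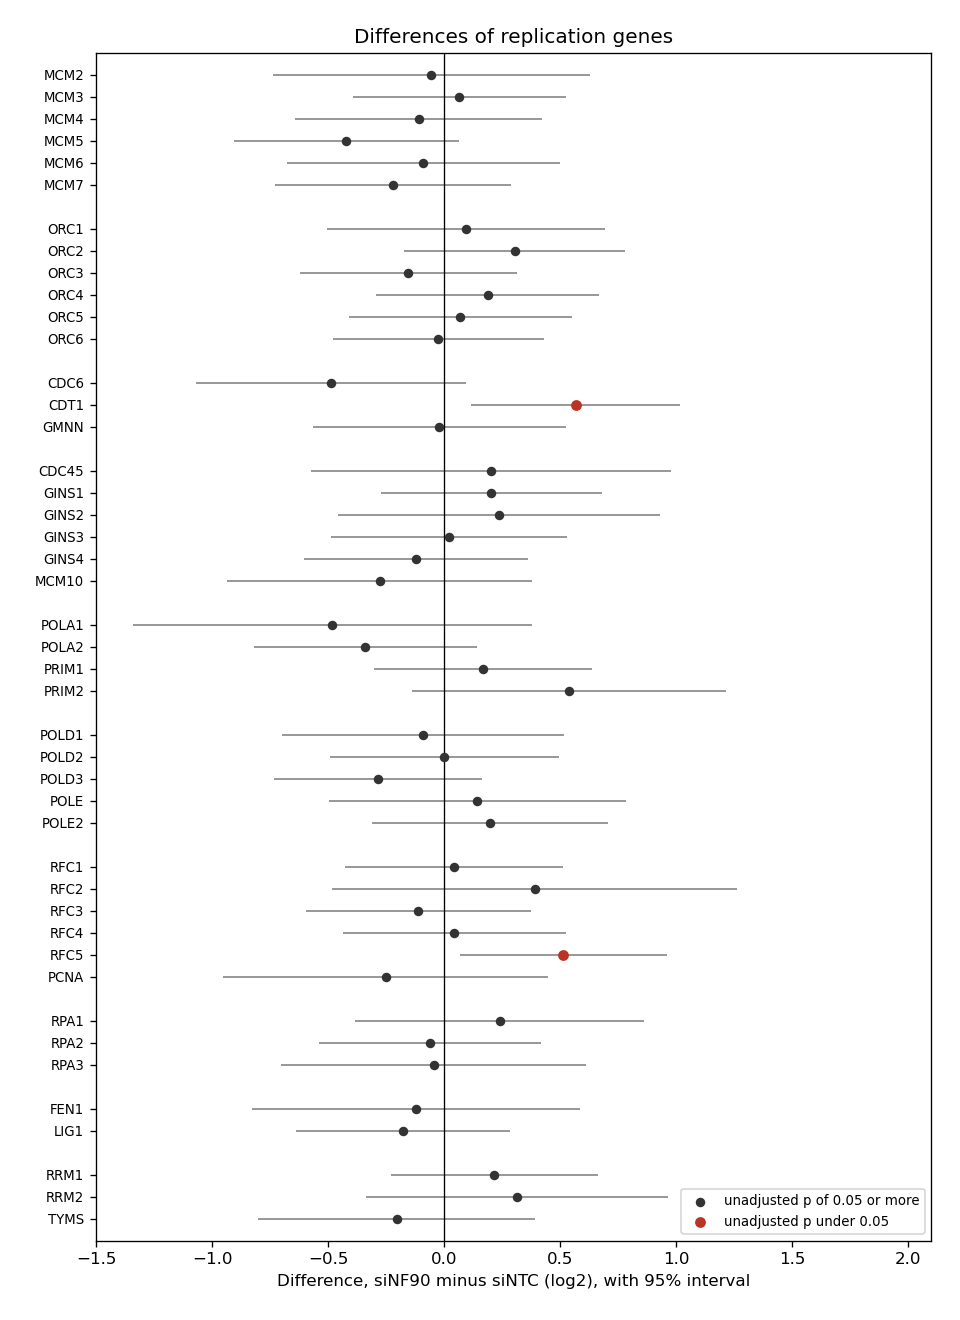
Difference of each of the 44 genes (siNF90 minus siNTC, log2; point) with its 95% interval from limma (line), ordered by complex. The intervals of CDT1 (0.12 to 1.02) and RFC5 (0.07 to 0.96), in red, lie above 0, and the other 42 intervals include 0. The CDT1 value includes a probe set kept only through its siNF90 values, and without it the unadjusted p was 0.063 in limma.

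The promoters of 4 members are shown here because these genes had groups that did not overlap, and differences of both signs. CDT1 and RFC5 are the genes higher in siNF90 with the smallest p in the main fit, which for CDT1 includes a probe set kept only through its siNF90 values. CDC6, which acts beside CDT1, and POLA2, the regulatory subunit of DNA polymerase alpha, were lower on both siNF90 arrays. Each window runs from 250 bases before to 50 bases after the annotated start in RefSeq, build GRCh38.p14, and all 4 lie on the plus strand. Capitals mark matches, on either strand, to the E2F-type motifs TTTGGCGC, TTTCCCGC, TTTCGCGC, TTTGCCGC and TTTGGCGG.
CDT1 promoter: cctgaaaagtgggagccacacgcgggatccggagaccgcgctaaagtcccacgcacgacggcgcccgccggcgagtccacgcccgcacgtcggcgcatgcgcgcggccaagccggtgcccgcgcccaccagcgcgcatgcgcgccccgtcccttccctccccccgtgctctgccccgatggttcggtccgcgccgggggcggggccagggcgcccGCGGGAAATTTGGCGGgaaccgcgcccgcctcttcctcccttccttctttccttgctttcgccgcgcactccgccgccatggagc
RFC5 promoter: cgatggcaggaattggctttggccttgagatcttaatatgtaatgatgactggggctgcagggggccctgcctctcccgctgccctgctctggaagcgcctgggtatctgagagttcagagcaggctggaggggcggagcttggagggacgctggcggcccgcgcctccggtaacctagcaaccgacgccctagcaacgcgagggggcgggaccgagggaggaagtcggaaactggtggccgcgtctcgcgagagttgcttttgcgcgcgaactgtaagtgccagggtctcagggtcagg
CDC6 promoter: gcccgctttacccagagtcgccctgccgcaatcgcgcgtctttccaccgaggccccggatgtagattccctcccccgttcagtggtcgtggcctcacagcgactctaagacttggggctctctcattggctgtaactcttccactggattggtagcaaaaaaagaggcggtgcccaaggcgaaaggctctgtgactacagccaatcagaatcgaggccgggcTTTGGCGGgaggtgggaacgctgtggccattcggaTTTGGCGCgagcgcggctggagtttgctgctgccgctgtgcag
POLA2 promoter: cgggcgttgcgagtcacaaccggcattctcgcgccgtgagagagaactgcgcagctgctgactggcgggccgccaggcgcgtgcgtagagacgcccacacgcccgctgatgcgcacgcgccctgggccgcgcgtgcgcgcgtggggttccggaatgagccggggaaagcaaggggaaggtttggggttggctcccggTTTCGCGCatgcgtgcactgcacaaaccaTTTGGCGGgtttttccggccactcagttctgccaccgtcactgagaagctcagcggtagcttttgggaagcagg
The CDT1 window (chr16:88803539-88803838) held TTTCCCGC on the opposite strand at -35 from the start and TTTGGCGG directly after it at -27. The CDC6 window (chr17:40287629-40287928) held TTTGGCGG at -28 and TTTGGCGC at 8. The POLA2 window (chr11:65261712-65262011) held TTTCGCGC at -53 and TTTGGCGG at -24, and no match was found in the RFC5 window (chr12:118016453-118016752). CDT1 and CDC6 both held TTTGGCGG, and their differences had opposite signs.

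Promoter windows were available for 38 of the 44 genes. At least 1 of the 5 motifs was found for 22 of these genes, in 22 of the 48 windows of the 38 genes (45.8%), against 3.92% of all 35116 windows of the same length. The fifth motif, TTTGGCGG, was added after these sequences had been read, so the share with it is raised by the choice. The other 4 motifs were found for 19 genes, in 39.6% of the 48 windows and 3.31% of all windows. A match describes these letters and is not a site of measured binding. The 22 genes with a match had a median difference of -0.072 and the 16 without one 0.18, with 9 and 13 positive differences. With the other 4 motifs the medians were -0.088 and 0.17. Set against the second siNTC array, the medians of the genes with a match were positive, at 0.085 for the first and 0.12 for the second siNF90 array. Set against the first siNTC array they were -0.18 and -0.25. The genes without a match had higher medians in all 4 pairs, at 0.32 and 0.18 against the second siNTC array and 0.15 and -0.043 against the first. These are descriptions with no test.

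With all kept probe sets, the licensing factors held the largest differences of both signs. CDT1, which brings the MCM2-7 ring to origins, had gene values of 6.0 and 5.96 on the siNTC arrays and 6.58 and 6.51 on the siNF90 arrays. The siNF90 arrays were the higher ones, and the gap between the groups was wider than the gap within either. The difference was 0.57 (SE 0.17, 1.48-fold), with an adjusted p of 0.52 in limma. Among 12 CDT1 probe sets 11 had positive differences, and 1 passed the dim filter only through its siNF90 values. Without that probe set the difference was 0.41 (SE 0.17, unadjusted p of 0.063 in limma), an alternative added after the values were seen. That value is below the 0.51 of RFC5 and the 0.54 of PRIM2. Across the settings tried, CDT1 stayed positive, and its smallest value was 0.23 with the median of its probe sets in place of their mean.

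CDC6, the ATPase that works with CDT1 at origins, had 6.0 and 5.74 in siNTC cells and 5.21 and 5.56 in siNF90 cells. Both siNF90 arrays were lower, and of the 11 probe sets 10 were lower. The CDC6 difference of -0.49 (SE 0.22, 1.40-fold lower) had an adjusted p of 0.612 in limma, and it was -0.31 without the first siNF90 array. GMNN, which encodes geminin, had 5.70 and 5.92 against 5.94 and 5.64, with overlapping groups and a difference of -0.020. The mean over the 3 genes was 5.90 and 5.87 on the siNTC arrays and 5.91 and 5.90 on the siNF90 arrays. This was the only one of 10 complexes whose array means did not overlap between the groups, in a sum of opposite differences. The mean includes the CDT1 probe set that passed the dim filter only through its siNF90 values. Means of the complex without that probe set were not computed, so the lack of overlap is not read as a result. The margin was small, with the second siNF90 mean 0.0037 above the first siNTC mean. Among single genes the groups did not overlap in 41.1% of all genes tested.

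Among subunits of the MCM2-7 helicase, 5 of 6 had negative differences and 0 passed the test. MCM5 had 6.99 and 6.81 on the siNTC arrays against 6.41 and 6.56 on the siNF90 arrays, and 20 of its 22 probe sets were lower in siNF90. Its difference was -0.42 (SE 0.19), with an adjusted p of 0.605 in limma, and the groups did not overlap. It was -0.26 with the median of probe sets. MCM7 had 7.43 and 7.17 against 7.02 and 7.14, so that the second siNF90 array lay just under the second siNTC array. MCM2, MCM4 and MCM6 had -0.055, -0.11 and -0.088 with overlapping groups, and MCM3 had 0.067. Without the first siNTC array the median of the complex turned from -0.099 to 0.087, and without the second it was -0.31.

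The origin recognition complex, which marks the sites where helicases are loaded, had 4 positive and 2 negative differences. ORC2 had 6.34 and 6.14 on the siNTC arrays and 6.54 and 6.55 on the siNF90 arrays, with a positive difference in 21 of its 22 probe sets. Its difference of 0.30 (SE 0.18) had an adjusted p of 0.677 in limma, and it was 0.068 with the median of probe sets. ORC4 also lay higher on both siNF90 arrays, with a difference of 0.19, and ORC3 lower on both, with -0.15. ORC1, the subunit whose level follows the cell cycle, had 5.38 and 5.04 against 5.47 and 5.15. There the first replicates were the high ones in both groups, and the difference of 0.095 was smaller than the gap within either group. ORC5 and ORC6 had 0.071 and -0.024.

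Of the 6 helicase activation genes 4 had positive and 2 negative differences. CDC45, which joins the MCM2-7 ring, had 5.07 and 4.61 on the siNTC arrays and 5.33 and 4.74 on the siNF90 arrays. GINS2, a subunit of the GINS complex, had 4.32 and 3.97 against 4.64 and 4.13. In both genes each second array was low, and the differences of 0.20 and 0.24 had SEs of 0.30 and 0.26. GINS1 was the 1 gene of the 6 without overlap, with 6.82 and 6.63 against 6.90 and 6.95. MCM10, a factor needed for helicase activation, had 5.81 and 5.34 against 5.14 and 5.46 and a difference of -0.28 (SE 0.25). The MCM10 value was -0.043 without the first siNTC array and -0.51 without the second. GINS3 and GINS4 had 0.022 and -0.12, and the median of the 6 genes was 0.11.

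**Figure D2:**
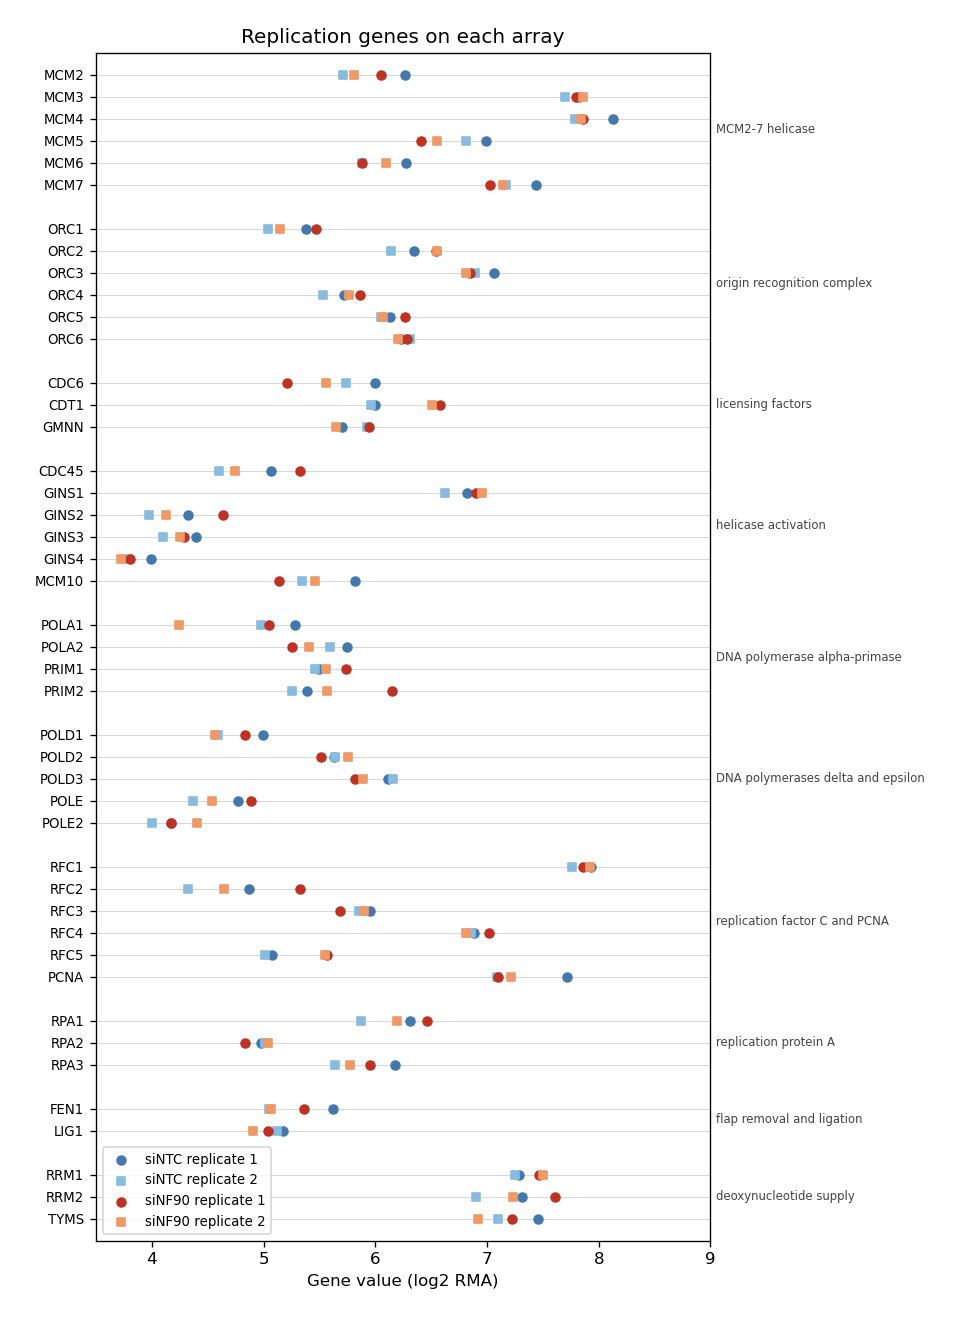
Gene value (log2 RMA, x axis) of the 44 genes on each of the 4 arrays, with siNTC in dark and light blue, siNF90 in red and orange, first replicates as circles and second replicates as squares. CDT1 and RFC5 have both siNF90 arrays to the right of both siNTC arrays, and CDC6 and MCM5 have them to the left.

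DNA polymerase alpha-primase lays down the primers, and 2 of its 4 subunits had negative differences. POLA1, the catalytic subunit, had 5.28 and 4.97 in siNTC cells and 5.05 and 4.24 in siNF90 cells. The low value is the second siNF90 array, and the difference of -0.48 (SE 0.33, adjusted p of 0.708 in limma) became -0.078 without it. POLA2 had 5.75 and 5.60 against 5.25 and 5.41, a difference of -0.34 (SE 0.18). The POLA2 value was -0.15 with no filter on dim probe sets and -0.084 with the median of probe sets.

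PRIM1, the catalytic primase subunit, had 5.50 and 5.46 against 5.74 and 5.56, a difference of 0.17 (SE 0.18). PRIM2, the large primase subunit, had 5.39 and 5.26 against 6.15 and 5.57, a difference of 0.54 (SE 0.26). That value rested on 2 probe sets, at 1.33 and -0.25, because the probe table pairs most of the PRIM2 probe sets with a second symbol as well. With all 14 kept probe sets that name PRIM2 the difference was -0.036 (SE 0.18), an alternative added after the values were seen. Levels of PRIM2 are therefore uncertain here.

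The replicative polymerases delta and epsilon had differences between -0.28 and 0.20. POLD3, an accessory subunit of polymerase delta, had 6.12 and 6.16 on the siNTC arrays and 5.82 and 5.89 on the siNF90 arrays. Both siNF90 arrays were lower and replicates lay close together, yet the difference of -0.28 (SE 0.17) had an adjusted p of 0.682 in limma and turned to 0.19 with the median of probe sets. POLD1, the catalytic subunit of polymerase delta, had -0.090, and POLD2, which links its subunits, 0.0019. POLE, the catalytic subunit of polymerase epsilon, had 4.77 and 4.36 against 4.89 and 4.54, with 30 of 52 probe sets higher in siNF90. POLE2, its second subunit, had 0.20 (SE 0.19).

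In the clamp loader, RFC5, a small subunit, had the smallest p. It had 5.07 and 5.01 on the siNTC arrays and 5.57 and 5.55 on the siNF90 arrays. The groups did not overlap, and 16 of 17 RFC5 probe sets had a positive difference. The difference of 0.51 (SE 0.17, 1.43-fold) had an adjusted p of 0.537 in limma and ranged from 0.48 to 0.55 when each array was left out.

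RFC2, another small subunit, had 4.87 and 4.32 against 5.33 and 4.64, a difference of 0.39 (SE 0.33). Its second arrays were low in both groups, and the value was 0.048 without the first siNF90 array. RFC1, the large subunit, had 0.043, RFC4 0.045 and RFC3 -0.11. PCNA, the sliding clamp, had 7.72 and 7.09 in siNTC cells and 7.10 and 7.21 in siNF90 cells. One siNTC array alone was high for PCNA, and its difference of -0.25 (SE 0.27) turned to 0.061 without that array.

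Replication protein A, which coats single-stranded DNA at the fork, had no member without overlap. RPA1, the large subunit, had 6.31 and 5.87 on the siNTC arrays and 6.46 and 6.20 on the siNF90 arrays, with 14 of 16 probe sets higher in siNF90. RPA2 and RPA3 had -0.059 and -0.044. FEN1, the nuclease that removes flaps of Okazaki fragments, had 5.62 and 5.04 against 5.36 and 5.07. LIG1, the ligase that seals them, had 5.17 and 5.12 against 5.04 and 4.90 and lay lower on both siNF90 arrays. Its difference of -0.18 (SE 0.18) turned to 0.18 with the median of probe sets.

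The enzymes of deoxynucleotide supply had a median difference of 0.22, which turned to -0.024 with the median of probe sets. RRM1, the large subunit of ribonucleotide reductase, had 7.28 and 7.25 on the siNTC arrays and 7.47 and 7.50 on the siNF90 arrays. Replicates of RRM1 differed by 0.035 or less, and the difference of 0.22 (SE 0.17) had an adjusted p of 0.743 in limma and also turned to -0.024 with the median of probe sets. RRM2, the small subunit and the one that follows the cell cycle, had 7.31 and 6.90 against 7.61 and 7.23. In RRM2 both groups showed a gap between replicates wider than the difference of 0.31 (SE 0.25). That difference was 0.11 without the second siNTC array, 0.12 without the first siNF90 array, and 0.52 and 0.50 without the first siNTC and second siNF90 array. TYMS, thymidylate synthase, had 7.45 and 7.10 against 7.23 and 6.92, with 6 of 8 probe sets lower in siNF90.

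Counted over all complexes, 8 of the 44 genes (18.2%) had siNF90 values that were all higher than the siNTC values, against 19.2% of all genes tested. They were all lower in 7 genes (15.9%), against 22% of all genes. The groups did not overlap in 34.1% of the replication genes and in 41.1% of all genes. The higher ones were ORC2, ORC4, CDT1, GINS1, PRIM1, PRIM2, RFC5 and RRM1, and the lower ones MCM5, MCM7, ORC3, CDC6, POLA2, POLD3 and LIG1. CDT1 is counted with a probe set kept only through its siNF90 values, and PRIM2 with 2 probe sets of opposite sign. Each share lay near or below that of all genes.

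The replication genes varied together between the control arrays. On the second siNTC array 39 of the 44 genes were lower than on the first (88.6%), with a median difference of -0.20. Over all genes tested 53.5% were lower, with a median of -0.030, and over the 3733 genes in the same range of values 54.9% were lower, with a median of -0.033. The 5 exceptions were ORC6, GMNN, POLD2, POLD3 and RPA2. All 10 complexes had a lower mean on the second siNTC array, with differences from -0.026 for the licensing factors to -0.33 for the helicase activation genes. In 9 of the 10 the mean was also lower on the second siNF90 array than on the first. The siNTC difference is a gap between 2 arrays of 1 group and has no test.

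The direction of a comparison of single arrays therefore followed the control array chosen. Against the first siNTC array the median of the 44 genes was -0.091 on the first and -0.19 on the second siNF90 array. Against the second siNTC array it was 0.17 and 0.11. The mean over the 44 genes was 6.01 and 5.77 on the siNTC arrays and 5.96 and 5.85 on the siNF90 arrays, so both siNF90 means lay between both siNTC means. Between the siNF90 arrays 27 of the 44 genes were lower on the second (61.4%), close to the 61% of all genes.

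**Figure D3:**
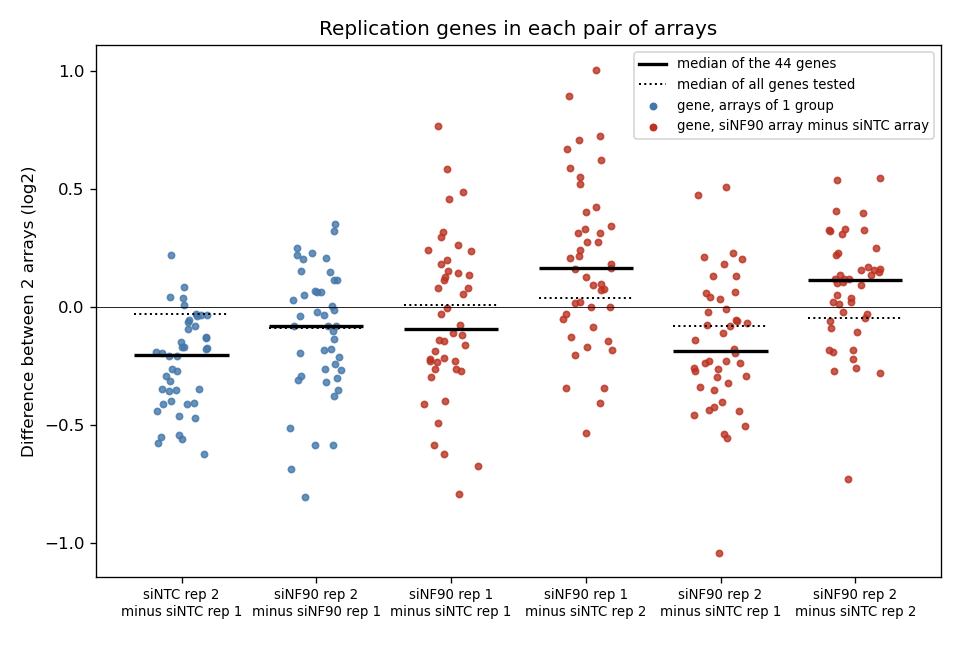
Difference of each of the 44 genes (points, log2) in each of the 6 pairs of arrays, with pairs within a group in blue and siNF90 minus siNTC pairs in red. The median of the 44 genes (solid line) is -0.20 between the siNTC arrays, negative against the first siNTC array and positive against the second, while the median of all genes (dotted line) stays between -0.090 and 0.040.

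**Figure D4:**
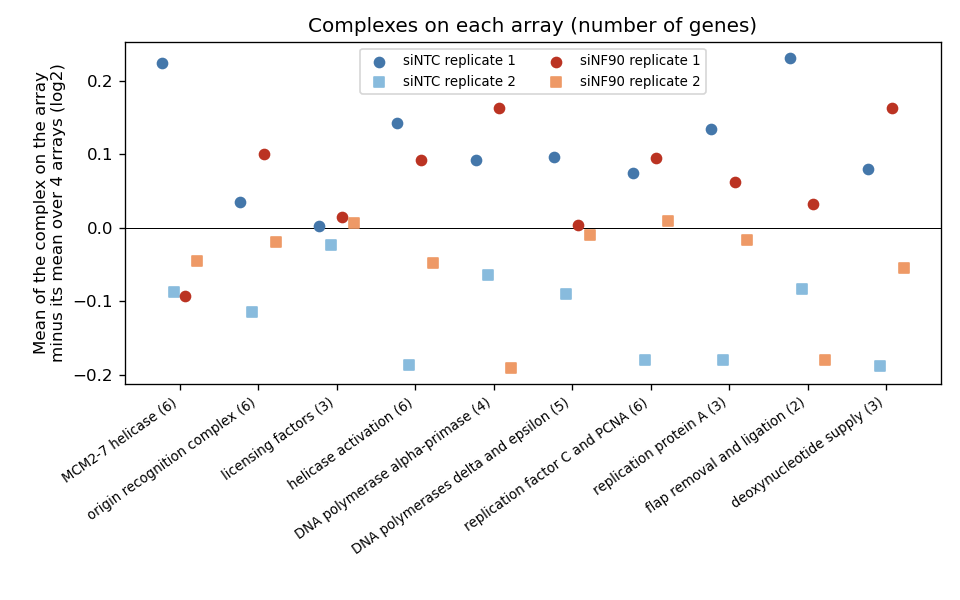
Mean of each complex on each array minus its mean over the 4 arrays (log2). The second siNTC array is below the first in all 10 complexes, and the groups overlap in 9. The licensing factors do not overlap, and their mean includes a CDT1 probe set that passed the dim filter only through its siNF90 values.

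Probe sets were examined because a gene value averages over parts of a transcript. The 44 genes had 740 probe sets with a single symbol, of which 677 were kept, from 2 for PRIM2 to 52 for POLE. Of the kept probe sets 331 were higher in siNF90 (48.9%), against 48.4% of all kept probe sets. Limma called 0 of the 677 and 0% of all kept probe sets at an adjusted p of 0.05. At an unadjusted p under 0.05 there were 31 of the 677, a smaller share than the 7.38% of all kept probe sets (12629 of 171120). Of the 31, 18 were higher in siNF90, and the share by direction over all kept probe sets was not computed. No gene had all its probe sets on the same side.

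Unequal change of the probe sets of a gene passed limma's diffSplice test, adjusted over all genes, in 2 of the 44 genes, CDT1 and ORC3 (4.55%, against 2.76% of all genes with at least 2 kept probe sets). In CDT1 the probe set that differed from the others had 1.67 and 0.82 on the siNTC arrays and 3.83 and 3.22 on the siNF90 arrays, a difference of 2.28. Its siNTC values lay below the median of all probe sets and below the dim filter of 2.13, so no fold is given. It passed that filter only through its siNF90 values, so the diffSplice call is not read as support for a change in CDT1. Without this probe set CDT1 had a difference of 0.41 (SE 0.17) from 11 probe sets, an alternative added after the values were seen. In ORC3 one probe set had 3.20 and 3.56 against 4.67 and 5.42, a difference of 1.67, while 13 of the 18 were lower in siNF90. Without that probe set ORC3 had -0.26 (SE 0.18). The false discovery rate of the gene was 0.021 for CDT1 and 0.027 for ORC3. The third smallest p belonged to CDC6, with a false discovery rate of 0.128. The CDT1 call was lost with the filter at the 60th percentile, which leaves that probe set out and where RFC4 passed beside ORC3, with the replicate block, without the second siNTC array and without either siNF90 array. The ORC3 call was lost without either siNTC array and without the second siNF90 array.

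**Figure D5:**
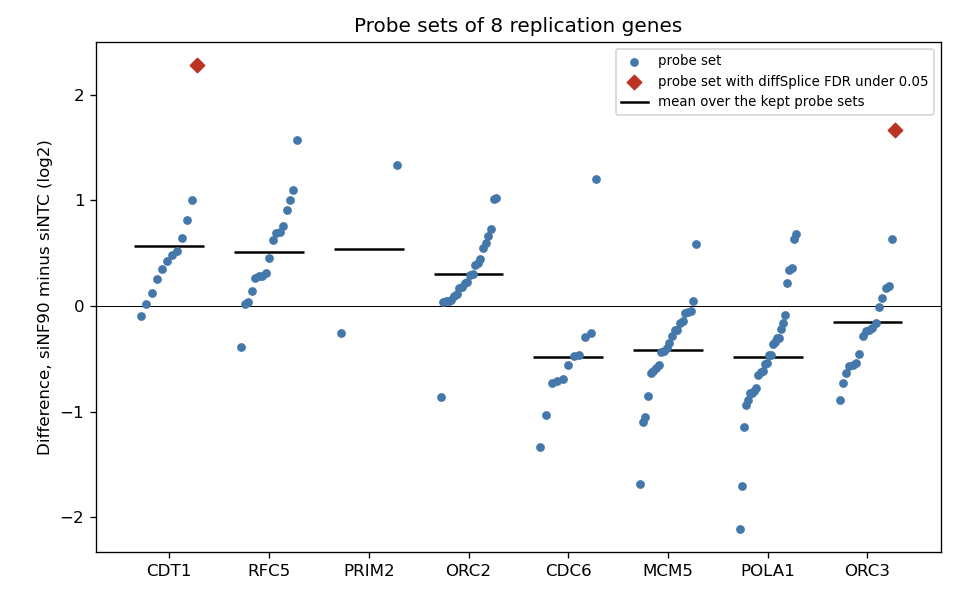
Difference of each kept probe set (points, log2, siNF90 minus siNTC) in 8 of the genes, with the mean over probe sets as a bar and diamonds for the probe sets that passed diffSplice. Nearly all probe sets of CDT1, RFC5 and ORC2 lie above 0 and nearly all of CDC6 and MCM5 below it, while the 2 of PRIM2 have opposite signs.

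Other genes of the replication pathway gave a like picture in the test of gene values. Of these, 64 were tested. Limma called 0 of the 64, and 2 had an unadjusted p under 0.05, 1 in each direction (3.12%, against 8.79% of all genes tested). SAMHD1, the enzyme that breaks down deoxynucleotides, had 5.69 and 5.75 on the siNTC arrays and 6.18 and 6.27 on the siNF90 arrays, a difference of 0.51 (SE 0.17, adjusted p of 0.547 in limma). ASF1B, a histone chaperone of replication, had 5.41 and 5.24 against 4.82 and 4.87, a difference of -0.48 (SE 0.18, adjusted p of 0.562 in limma). In both genes the groups did not overlap. Unequal change of probe sets passed diffSplice in 4 of the 64, a larger share than the 2.76% of all genes with at least 2 kept probe sets (446 of 16175). The 4 genes had 15 to 31 kept probe sets, where the median over all genes tested was 7. Their probe sets were not examined further.

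Over the 64 genes the median difference was -0.059, with 30 positive and 34 negative. The groups did not overlap in 39.1%, against 41.1% of all genes tested. Among them 9 genes (14.1%) were higher and 16 (25%) lower, against 19.2% and 22% of all genes. Median differences by group of genes were -0.11 for 14 genes of licensing control, -0.068 for 17 genes of fork progression and protection, -0.033 for 6 genes of other polymerase subunits and primer removal, -0.037 for 9 genes of chromatin assembly, 0.080 for 5 genes of other nucleotide supply and 0.019 for 13 E2F factors and partners. On the second siNTC array 47 of the 64 were lower than on the first (73.4%), with a median of -0.18. Against the first siNTC array their median was -0.10 on the first and -0.22 on the second siNF90 array. Against the second siNTC array it was 0.11 and -0.0052, where the 44 genes had 0.17 and 0.11.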

How the data were processed

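Total RNA of Huh7 cells was amplified to cRNA, copied into cDNA, fragmented and labelled with biotin, with 1 array for each sample. Expression Console (Affymetrix) was used by the authors to compute the deposited log2 values by RMA-sketch, per the labels. No label states base 2, and it follows from the method and from how the values are spread. A genome build and a program version were not given in these sources. RMA and averages over probe sets both pull folds towards 1.

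Of 352859 probe sets, the platform's table pairs 257971 with 1 symbol. Symbols of that table can be old. Probe sets with a mean over the 4 arrays at or above the 40th percentile (2.13) were kept, 171120 with 1 symbol, and a gene value was their mean. Groups come from the sample titles, and precision is limited by 2 arrays per group. Genes were tested with limma 3.58.1 in R 4.3.3 (lmFit, eBayes, two-sided, Benjamini-Hochberg over 19140 genes at 0.05), and probe sets with diffSplice (Simes). An exact permutation test of 2 against 2 arrays cannot go below 0.333 and was not used. The code was tested on simulated data.

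The members and lists were chosen with earlier results of these data known. Any member could be named, with values by array for those at an unadjusted p under 0.05 and those with extreme differences in a complex. Further members were given values by array after these had been seen. Other replication genes were named at an unadjusted p under 0.05, and the 3 smallest p of diffSplice were named. Promoters are from RefSeq. Alternatives were each array left out, the replicate number as a block, a robust prior with a trend, centred arrays, a further quantile normalization, identical probe sets counted once, the median over probe sets, and a dim filter left off or set at the 60th percentile. The labels do not say that a replicate number marks a shared batch, so the numbers were not taken as pairs. Over all genes tested, arrays with the same number did not deviate together (r of -0.012). This r does not settle pairing for the replication genes, as 9 of the 10 complexes had a lower mean on the second array in both groups. That count does not settle it either, as 61% of all genes were lower on the second siNF90 array than on the first.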

Additional observations from a re-analysis of the deposited data

How the results depend on the processing

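The number of arrays, 2 per group, limits the precision of each difference, and RMA values carry no counts from which a depth could be read. Limma called 0 of the 44 replication genes in every setting run. Over all genes it called 4 with no filter on dim probe sets and 48 with the trend and robust prior, and 0 in the other settings, the replicate block and each array left out included. Replicate numbers as a block left the differences as they were, called 0 replication genes and left 1 unequal set of probe sets, that of ORC3. Leaving out each array gave between 0 and 1 such genes, in place of 2. With the median of probe sets the median difference became 0.15 for polymerase alpha-primase, 0.18 for polymerases delta and epsilon, 0.042 for flap removal and ligation and -0.024 for deoxynucleotide supply. With centred arrays it was -0.0061 for the licensing factors. Over the arrays left out in turn, where the lone array of a group is assumed to vary like the other group, the median of the 44 genes ranged from -0.051 to 0.12. By complex it ranged from -0.31 to 0.087 for the MCM2-7 helicase, -0.045 to 0.20 for the origin recognition complex, -0.17 to 0.13 for the licensing factors, -0.077 to 0.23 for helicase activation and -0.13 to 0.090 for polymerase alpha-primase. It ranged from -0.061 to 0.11 for polymerases delta and epsilon, -0.0049 to 0.094 for replication factor C and PCNA, -0.039 to 0.23 for replication protein A, -0.31 to 0.0089 for flap removal and ligation and 0.11 to 0.23 for deoxynucleotide supply. Single genes changed sign as follows, and the cause was not tested. With no filter GINS4 had 0.076 and RPA3 0.029. With the filter at the 60th percentile MCM2 had 0.040 and POLE2 -0.12. With the median of probe sets MCM2 had 0.27, MCM3 -0.083, GINS3 -0.28, GINS4 0.22, POLD3 0.19, PCNA 0.035, LIG1 0.18 and RRM1 -0.024. PRIM2 had -0.036 with the probe sets of several symbols. Over the arrays left out, differences ranged from -0.34 to 0.22 for MCM2, -0.28 to 0.064 for MCM4, -0.29 to 0.11 for MCM6, -0.077 to 0.27 for ORC1, -0.026 to 0.17 for ORC5, -0.067 to 0.019 for ORC6, -0.17 to 0.13 for GMNN, -0.092 to 0.49 for CDC45, -0.019 to 0.49 for GINS2 and -0.12 to 0.17 for GINS3. They also ranged from -0.29 to 0.11 for POLD1, -0.12 to 0.13 for POLD2, -0.061 to 0.35 for POLE, -0.041 to 0.13 for RFC1, -0.059 to 0.15 for RFC4, -0.56 to 0.061 for PCNA, -0.16 to 0.044 for RPA2, -0.32 to 0.23 for RPA3 and -0.41 to 0.17 for FEN1.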
